A study of Mus musculus with 36 samples.

Results

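The phagocyte NADPH oxidase was followed through 5 of its subunit genes, *Cybb*, *Cyba*, *Ncf1*, *Ncf4* and *Rac2*, out of 54347 genes in the count table. These members were chosen by symbol from a set whose levels and treatment responses in these data were already known. Their levels and fold changes are therefore given as a description. Calls and intervals of the members come from a fit over all genes and are part of that description. Counts of members that passed a threshold, or whose libraries did not overlap between groups, carry no weight of their own. The share of all genes without such overlap is not given.

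The oxidase makes superoxide in phagocytes by passing electrons from NADPH to oxygen across the membrane of the phagosome, and it is known for its part in the killing of ingested microbes. *Cybb* encodes the catalytic subunit gp91phox (NOX2) and *Cyba* its membrane partner p22phox, which together form cytochrome b558. The cytosolic subunits p47phox (*Ncf1*) and p40phox (*Ncf4*) join the membrane pair upon activation, together with the small GTPase RAC2. Loss of a core subunit causes chronic granulomatous disease.

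RNA was sequenced from primary cells of male mice labelled C57Bl/6, namely adipocytes differentiated from the stromal vascular fraction of inguinal fat pooled over several mice, macrophages differentiated from bone marrow in L929-conditioned medium, myotubes differentiated from hindlimb muscle myoblasts, and collagenase-isolated hepatocytes. Each cell type received 5 mM β-hydroxybutyrate (βOHB), 5 mM butyrate or PBS as control for 6 h, which gave 12 groups of 3 libraries, 36 in all. βOHB is the ketone body that carries a hydroxyl group on the beta carbon of butyrate, while butyrate, made by gut bacteria, is known as a histone deacetylase inhibitor. The vehicle was the same in every cell type. The methods of the study give C57BL/6NHsd for the hepatocyte donors and C57Bl/6 for the others. Adipocytes and macrophages were treated in the same serum-containing DMEM, myotubes in differentiation medium and hepatocytes in Williams E medium. For myotubes the medium, and for hepatocytes the medium and substrain, cannot be told apart from the cell type. The labels do not say whether replicates came from separate animals or cultures, so the intervals below measure only the spread between these libraries.

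Library totals lay between 18366289 and 23221473 estimated counts. Levels are given in CPM, counts scaled to a common library size after TMM normalisation, and a gene is said to have passed the call when its Benjamini-Hochberg adjusted p in edgeR's quasi-likelihood test, over 15340 genes tested, was below 0.05. In macrophage controls all 18 macrophage markers exceeded 1 CPM, with a summed level of 22650 to 22800 CPM. None of 8 neutrophil markers exceeded 1 CPM in any cell type, and *Ly6g* was at 0 in macrophage controls. Fibroblast markers also reached a summed 2328 to 2450 CPM in macrophage controls, with 5 of 6 above 1 CPM. They summed to 5894 to 6853 CPM in adipocyte controls and 1301 to 1548 CPM in myotube controls, and their part in the results was not tested. The labelled adipocytes, myotubes and hepatocytes carried the markers of their own type. The 7 hepatocyte markers summed to at most 0.0440 CPM in myotube controls, but to 31.0 to 550 CPM in the 3 butyrate-treated myotube libraries and to 24.2 CPM in 1 βOHB-treated one.

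The 5 genes lie on 4 chromosomes of GRCm38. *Cybb* (ENSMUSG00000015340) was annotated at chrX:9435252-9487771 on the minus strand and *Cyba* (ENSMUSG00000006519) at chr8:122424776-122432930, also on the minus strand. *Ncf1* (ENSMUSG00000015950) lay at chr5:134220053-134229625 on the minus strand. *Ncf4* (ENSMUSG00000071715, chr15:78244801-78262580, plus strand) and *Rac2* (ENSMUSG00000033220, chr15:78559167-78572783, minus strand) shared chromosome 15. *Ncf1* shared 408 exonic bases, 11.1% of its exonic length, with *Gtf2ird2* on the opposite strand. Whether the counting used strand is not given in the sources used here, so reads in that stretch could belong to either gene.

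The 250 bases before the annotated RefSeq start are shown for *Ncf1*, *Cyba* and *Cybb*, since no window was available for *Ncf4* and *Rac2*. They are printed 5′ to 3′ on the strand of the gene, from GRCm38.p6 at chr5:134229626-134229875, chr8:122432941-122433190 and chrX:9469325-9469574, all on the minus strand. The RefSeq start of *Cybb* lies inside the gene span given above. Capitals mark the letters CCAAT.
Ncf1: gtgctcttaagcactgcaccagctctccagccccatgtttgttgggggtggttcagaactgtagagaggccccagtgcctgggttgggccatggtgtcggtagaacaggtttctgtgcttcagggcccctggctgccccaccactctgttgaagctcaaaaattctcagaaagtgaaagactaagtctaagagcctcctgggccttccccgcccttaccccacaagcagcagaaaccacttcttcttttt
Cyba: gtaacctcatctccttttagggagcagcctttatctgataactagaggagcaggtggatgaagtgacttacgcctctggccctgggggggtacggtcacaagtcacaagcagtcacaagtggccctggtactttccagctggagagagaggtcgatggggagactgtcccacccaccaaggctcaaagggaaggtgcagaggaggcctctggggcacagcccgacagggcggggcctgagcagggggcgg
Cybb: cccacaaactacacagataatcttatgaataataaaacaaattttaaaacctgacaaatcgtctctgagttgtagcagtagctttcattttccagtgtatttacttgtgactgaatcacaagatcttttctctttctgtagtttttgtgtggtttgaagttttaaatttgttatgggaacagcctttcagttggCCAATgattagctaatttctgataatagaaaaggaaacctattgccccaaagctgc
The window of *Cybb* held the letters CCAAT once, from 56 to 52 bases before the start, and a match on either strand occurred in 33.8% of the 32851 promoter windows of that length. The letters GAGGAA, a core that the myeloid factor PU.1 can bind, were searched on both strands and did not occur in these 3 windows, against 23.3% of all windows. TATAAA was likewise not found, against 12.4%. Only these exact letters were searched, so other forms of a site, or sites outside the 250 bases, were not covered. The GC content was 34.0% for *Cybb*, 54.4% for *Ncf1* and 60.0% for *Cyba*, beside a median of 52.4% over all windows.

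All 5 transcripts were highest in macrophages. *Cybb*, the catalytic subunit, reached 647, 682 and 640 CPM in the 3 macrophage controls. *Ncf1*, the organizer of the cytosolic complex, was at 334, 327 and 330 CPM. *Cyba*, the membrane partner, was at 283, 276 and 266 CPM. These libraries lay close together for each gene, with an SD of 22.6 CPM for *Cybb* (n = 3). *Rac2*, the GTPase of blood cells, was at 146, 149 and 149 CPM, and *Ncf4*, which binds phosphoinositides at the phagosome, at 63.4, 67.7 and 70.6 CPM. Per kilobase of exon the order changed, since *Cyba* is a short gene. *Cyba* then led with a level of 265 CPM per kb, followed by *Cybb* with 113, *Ncf1* with 90.2, *Rac2* with 47.6 and *Ncf4* with 33.3.

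Adipocyte and myotube controls held a few percent of the macrophage level. *Cybb* was at 17.2, 18.7 and 20.0 CPM in adipocyte controls, and the macrophage mean was 35.3 times higher. *Ncf1* was at 9.09, 7.92 and 9.11 CPM there, 37.9 times below macrophages, whereas the gap was 17.1-fold for *Cyba*, 20.5-fold for *Ncf4* and 22.9-fold for *Rac2*. Relative to their mean, myotube controls were spread more widely than adipocyte and macrophage controls. *Cybb* was at 22.1, 18.3 and 6.06 CPM, *Ncf1* at 16.7, 13.4 and 6.86 CPM, and *Rac2* at 6.23, 6.91 and 2.55 CPM. The third myotube control was thus the lowest for each of these genes. Hepatocyte controls stood near the limit of detection, with 1.32, 1.05 and 1.06 CPM for *Cybb* and 3, 7 and 4 counts for *Ncf1*. *Ncf4* had 1 count in the 3 hepatocyte controls together, and the ratio of macrophages over hepatocytes had a 95% counting interval of 703 to 154800, which covers counting error only.

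**Figure D1:**
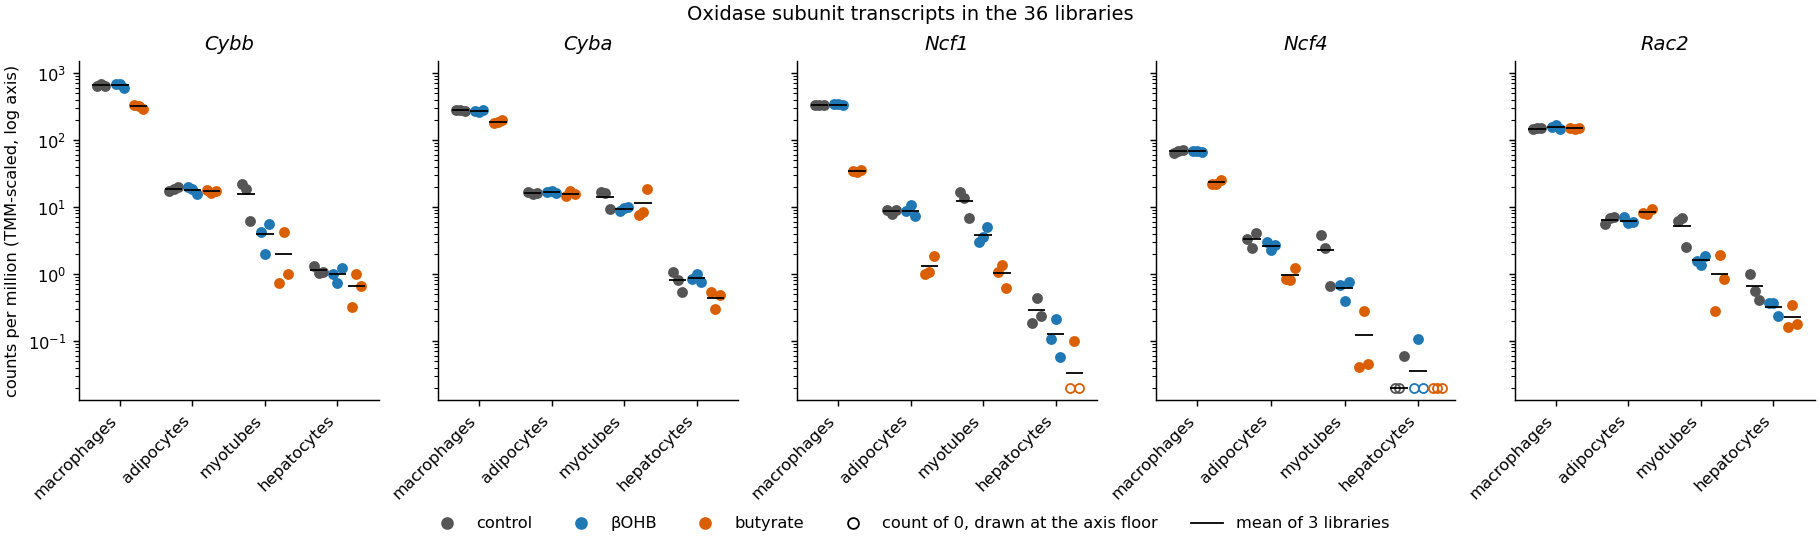
Level of each subunit transcript in the 36 libraries, in TMM-scaled CPM on a log axis, by cell type and treatment. Points are libraries, lines are means of 3 and open points are counts of 0. Macrophages lie highest in each panel, and the *Ncf1* libraries under butyrate sit at 32.6 to 35.0 CPM against 327 to 334 CPM in macrophage controls.

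In the order of the 12 groups by mean level, the macrophage groups took the first 3 places for each subunit and did not overlap with any other cell type. Macrophage control and βOHB libraries overlapped for all 5 genes. For *Cybb*, the adipocyte groups and the myotube controls overlapped as neighbours at places 4 to 7, and the treated myotubes and hepatocytes overlapped from place 8 to 12. For *Ncf1*, myotube controls took place 4 with 12.3 CPM on average but overlapped with adipocytes, and butyrate-treated adipocytes with a mean of 1.31 CPM fell to place 8. For *Rac2* the 3 macrophage groups overlapped with one another.

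The filter asked for more than 1 CPM in at least 6 of the 36 libraries, with CPM here taken on library totals before TMM scaling, so that its counts can differ from the scaled levels given elsewhere. All 5 members passed it. On that unscaled measure all 9 macrophage libraries were above 1 CPM for each member, as were all 9 adipocyte libraries for *Cybb*, *Cyba*, *Ncf1* and *Rac2* and 7 of 9 for *Ncf4*. In hepatocytes no library exceeded 1 unscaled CPM for *Cyba*, *Ncf1*, *Ncf4* or *Rac2*, and 2 of 9 did for *Cybb*. Only 2 of 9 myotube libraries did for *Ncf4*.

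Butyrate lowered 4 of the 5 subunits in macrophages, a count that reflects how they were chosen, and 33.2% of all tested genes were lowered there. *Ncf1* changed most. It dropped to 34.2, 32.6 and 35.0 CPM, 9.73-fold lower than control, with a log2 fold change of -3.28 (SE 0.15, 95% interval -3.60 to -2.97). The treated and control libraries were far apart. *Ncf4* was at 22.0, 22.3 and 25.2 CPM under butyrate, with a log2 fold change of -1.54 (SE 0.17, 95% interval -1.89 to -1.18). *Cybb* was at 333, 324 and 291 CPM, a 2.08-fold decrease (log2 fold change -1.06, SE 0.23, 95% interval -1.52 to -0.59). Both genes were lower in each butyrate library than in any control library. *Cyba* was at 178, 186 and 199 CPM, 1.46-fold lower (95% interval -0.85 to -0.25 on the log2 scale). Scaling by library totals alone, which moves the median of all genes by 0.20 on the log2 scale in this comparison, gave -0.33 for *Cyba* and ended its call. *Rac2* was at 153, 145 and 151 CPM, overlapping its controls, with a log2 fold change of 0.02 (95% interval -0.27 to 0.31).

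Since the samples are bulk RNA, fewer cells of a type and less RNA per cell cannot be told apart. Of the 18 macrophage markers, 10 were lowered and 0 raised by butyrate in macrophages, and their summed level was 14350 to 15120 CPM under butyrate. In each butyrate library the median marker stood at 67.7% to 73.0% of its control mean, whereas *Ncf1* stood at 9.88% to 10.6%, *Ncf4* at 32.7% to 37.5%, *Cybb* at 44.3% to 50.7% and *Cyba* at 64.6% to 72.5%. Fibroblast markers summed to 1613 to 2247 CPM under butyrate, with 2 of 6 raised and 0 lowered (median log2 fold change -0.08). Of the endothelial markers 2 of 4 were lowered (median -1.03), and 8 of 8 myotube markers were raised, from a summed 6.99–15.0 to 22.2–68.7 CPM. The part of the markers in these values was not tested.

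βOHB left the 5 transcripts close to control in macrophages, where 0 of the 5 and 0% of all tested genes passed the call by edgeR. *Ncf1* was at 343, 338 and 329 CPM under βOHB and *Cybb* at 678, 679 and 594 CPM. The log2 fold changes ran from -0.03 for *Cyba* to 0.09 for *Rac2*, and the widest interval was that of *Cybb*, from -0.47 to 0.44. Limma-voom and DESeq2 also called 0 of the 5 subunits.

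**Figure D2:**
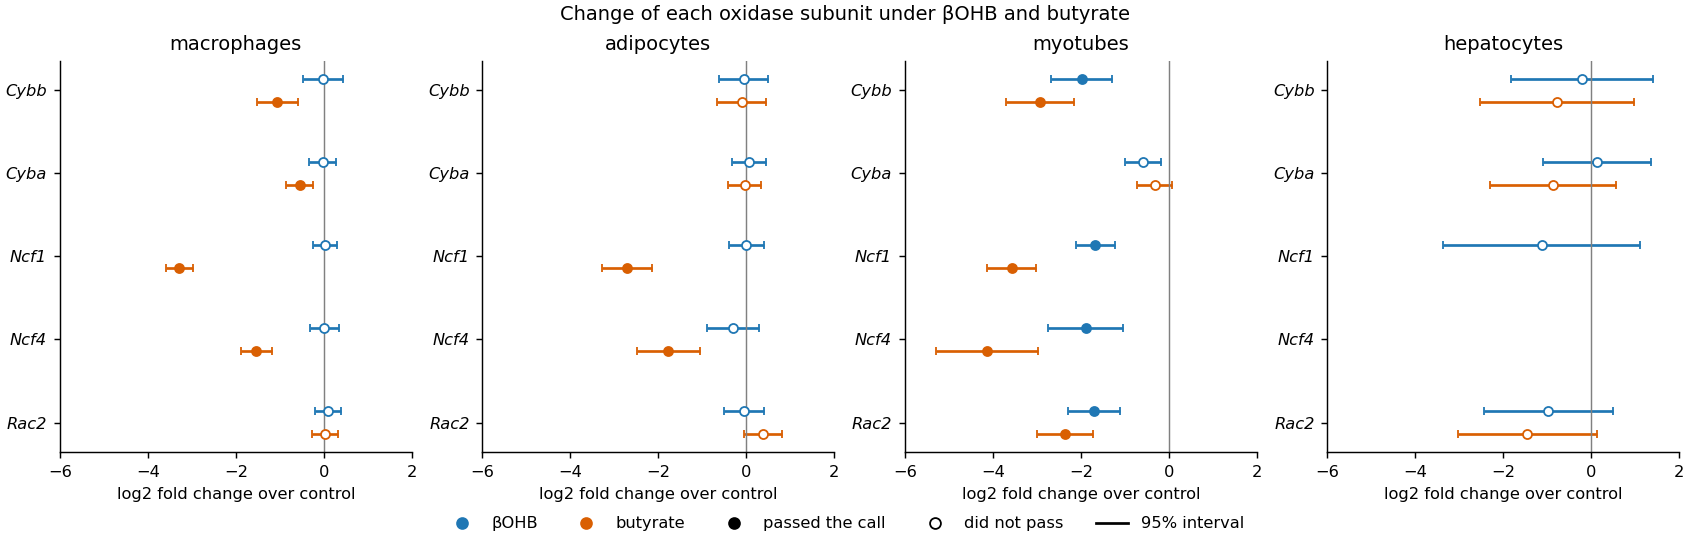
Log2 fold change over control of each subunit in the 4 cell types, for βOHB and butyrate, with 95% intervals; filled points passed the call. Changes with 3 counts or fewer in a group (*Ncf4* and, under butyrate, *Ncf1* in hepatocytes) are left out. In macrophages the butyrate values run from -3.28 for *Ncf1* to 0.02 for *Rac2*, and the βOHB intervals all span 0.

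Butyrate and βOHB were compared directly at the same dose and time in 4 pairs of groups, 1 for each cell type. In macrophages butyrate was lower than βOHB for 4 of the 5 subunits, with 32.8% of all tested genes lower. The difference on the log2 scale was -3.31 for *Ncf1* (95% interval -3.62 to -2.99), -1.55 for *Ncf4* (-1.90 to -1.20), -1.04 for *Cybb* (-1.50 to -0.58) and -0.52 for *Cyba* (-0.83 to -0.22). Under library totals *Cyba* was at -0.30 and lost its call. For *Rac2* the difference was -0.07 (0.155 under library totals), and its interval, -0.36 to 0.22, bounds any gap between the compounds but does not show that they act alike.

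The balance between subunits also moved in butyrate-treated macrophages. Ratios of each subunit to *Cybb*, per kilobase and within the same library, do not depend on scaling. They were chosen after the values were seen and are a description. In macrophage controls *Ncf1* stood at 0.761 to 0.818 of the *Cybb* level, and under butyrate at 0.160 to 0.191, which was 4.67 times lower on average. *Ncf4* went from 0.282–0.317 to 0.190–0.249. *Rac2* went the other way, from 0.407–0.435 to 0.838–0.971, a 2.11-fold higher ratio, and *Cyba* from 2.26–2.45 to 2.98–3.83. Under βOHB the ratio of *Ncf1* was 0.789 to 0.877 and overlapped with control.

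**Figure D3:**
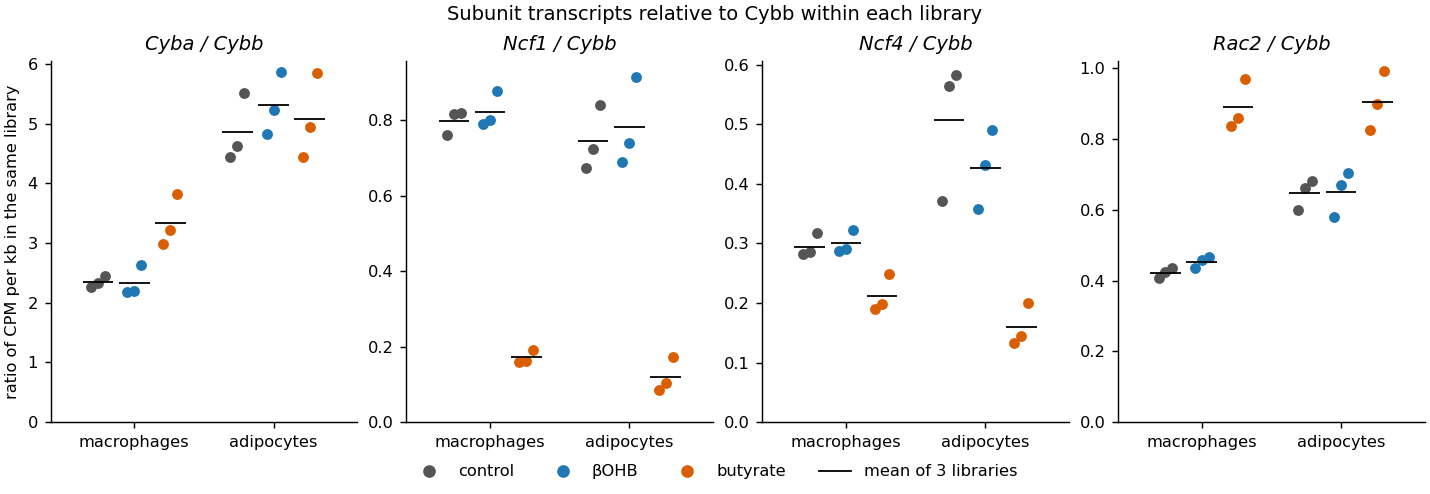
Ratio of each subunit to *Cybb* in CPM per kilobase of exon, in the 3 libraries of each macrophage and adipocyte group, with lines for the mean. The *Ncf1* ratio lies at 0.160 to 0.191 in butyrate-treated macrophages and 0.0859 to 0.171 in butyrate-treated adipocytes, below all control and βOHB libraries, while the *Rac2* ratio lies above them.

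In adipocytes butyrate lowered 2 of the 5 subunits, *Ncf1* and *Ncf4*, where 30.3% of all tested genes were lowered. *Ncf1* was at 0.985, 1.07 and 1.88 CPM under butyrate, 6.59-fold below control (log2 fold change -2.72, SE 0.28, 95% interval -3.29 to -2.16). *Ncf4* was at 3.38, 2.41 and 4.05 CPM in controls and 0.837, 0.824 and 1.21 CPM under butyrate (log2 fold change -1.77, 95% interval -2.49 to -1.06). Butyrate and control libraries did not overlap for either gene. The 2 membrane subunits stayed near control, with 18.2, 16.3 and 17.4 CPM for *Cybb* (log2 fold change -0.11, 95% interval -0.67 to 0.45) and 14.4, 17.1 and 15.4 CPM for *Cyba* (-0.04, 95% interval -0.42 to 0.34). *Rac2* was at 8.03, 7.82 and 9.23 CPM, above its controls at 5.50, 6.80 and 7.05 CPM, but did not pass the call (log2 fold change 0.37, 95% interval -0.05 to 0.80). It passed without the filter on low counts (0.33) and with the adipocyte libraries alone (0.38).

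As a list, macrophage markers in the same adipocyte libraries moved little. Their summed level was 525 to 615 CPM in controls and 502 to 534 CPM under butyrate, where 3 of the 18 were lowered and 1 raised. Single markers moved more, on average from 48.06 to 25.52 CPM for *Csf1r*, 8.93 to 3.43 CPM for *Cd14* and 10.52 to 18.35 CPM for *Mertk*. The median marker stood at 3.49% to 3.63% of its macrophage control level under butyrate, close to 3.53% to 3.72% in controls. *Ncf1* meanwhile stood at 2.40% to 2.76% of its macrophage control level in adipocyte controls and 0.298% to 0.570% under butyrate. Other lists moved in these libraries, with 4 of 6 adipocyte markers lowered (from a summed 7892–8581 to 6244–7610 CPM) and 2 of 4 endothelial markers lowered (176–202 to 117–134 CPM), and their part was not tested. Within these libraries the ratio of *Ncf1* to *Cybb* was 6.19 times lower and that of *Ncf4* 3.18 times lower under butyrate.

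Under βOHB 0 of the 5 passed the call in adipocytes, where 0.00652% of tested genes, a single gene, passed the call by edgeR. *Ncf4* was at 2.95, 2.27 and 2.66 CPM, and its interval ran from -0.90 to 0.28. *Ncf1* ranged from 7.25 to 10.5 CPM around its controls. The 95% intervals of all 5 spanned 0, and DESeq2 and limma-voom also called 0 members. In the direct comparison butyrate was lower than βOHB for *Ncf1* (-2.72, 95% interval -3.29 to -2.15) and *Ncf4* (-1.46, -2.21 to -0.71), 2 of 5 members, beside 29.5% of tested genes. The difference was -0.04 for *Cybb* (-0.61 to 0.52), -0.10 for *Cyba* (-0.48 to 0.28) and 0.43 for *Rac2* (-0.01 to 0.86). The *Rac2* difference passed under library totals (0.55), without a filter (0.39) and with the adipocyte libraries alone (0.44).

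In myotubes both compounds lowered the same 4 members, *Cybb*, *Ncf1*, *Ncf4* and *Rac2*. The comparisons share the myotube controls, so they are set side by side only. Under βOHB 2.56% of tested genes were lowered. *Cybb* was at 4.17, 1.95 and 5.63 CPM, with a log2 fold change of -1.98 (SE 0.34, 95% interval -2.68 to -1.28). *Ncf1* was at 2.98, 3.51 and 5.01 CPM (log2 fold change -1.68, SE 0.22) and *Rac2* at 1.56, 1.38 and 1.86 CPM (-1.70, SE 0.29). Every βOHB library was below the lowest control for these 3 genes, although the third control came close for *Cybb*. *Ncf4* had 84, 55 and 15 counts in controls and 15, 9 and 17 under βOHB, so its libraries overlapped (log2 fold change -1.89, SE 0.41). *Cyba* overlapped too, at 8.58, 9.50 and 10.1 CPM against 16.7, 16.3 and 9.40 CPM, and did not pass (-0.59, 95% interval -0.997 to -0.18).

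These calls under βOHB depended on the libraries fitted. When only the 9 myotube libraries were fitted, 0 of the 5 members passed by edgeR, as did 0 genes of the whole table, while the log2 fold changes of the 4 stayed between -2.02 and -1.72. In the model of all libraries, *Ncf4* lost its call without the first myotube control (-1.32) or without the second βOHB library (-1.66), and also with limma-voom (-1.59). Without the filter on low counts *Cyba* gained a call (-0.63).

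Butyrate lowered the same 4 in myotubes, with 33.4% of tested genes lowered. *Ncf1* was at 1.06, 1.37 and 0.625 CPM, 11.9-fold below control (log2 fold change -3.57, SE 0.27, 95% interval -4.13 to -3.01). *Cybb* was at 0.731, 4.24 and 0.982 CPM (-2.94, SE 0.38), and *Rac2* at 0.284, 1.90 and 0.848 CPM (-2.35, SE 0.31). The second butyrate library was the highest of its group for each of these genes. *Ncf4* had 1, 7 and 1 counts, with a log2 fold change of -4.13 and an interval from -5.30 to -2.97. Without the second butyrate library the values were -4.17 for *Cybb*, -3.22 for *Rac2* and -5.57 for *Ncf4*. *Cyba* was at 7.47, 8.36 and 18.3 CPM and did not pass (-0.32, 95% interval -0.72 to 0.08), but without the third butyrate library, the highest of the 3, it was -0.83 and passed, as it did without the third control (-0.55).

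The macrophage markers moved with the oxidase subunits in myotubes. Their summed level was 549, 457 and 207 CPM in the 3 controls, 113, 83.8 and 199 CPM under βOHB and 43.5, 145 and 68.2 CPM under butyrate. Of the 18 markers, 17 were lowered by each compound, 1 (*Mertk*) was raised by butyrate, and no defining marker (*Adgre1*, *Csf1r*, *Ptprc*) was at 0. The median of the list changed by -1.66 on the log2 scale under βOHB and by -2.53 under butyrate. The third control, lowest for *Cybb*, *Ncf1*, *Ncf4* and *Rac2*, was also the lowest of the controls for the markers, and the second butyrate library, highest for *Cybb* and *Rac2*, was the highest of its group. *Csf1r*, the receptor for macrophage colony-stimulating factor, was at 45.6, 37.9 and 14.5 CPM in controls, 8.67, 5.68 and 13.4 CPM under βOHB and 1.18, 7.11 and 3.97 CPM under butyrate. Other marker lists moved in these libraries too. Under butyrate 7 of 7 hepatocyte markers were raised, to the sums given above, and 4 of 8 myotube markers were lowered, from a summed 25780–31710 to 17630–23440 CPM. Of 6 fibroblast markers butyrate raised 2, and of 4 endothelial markers it raised 1 and lowered 1. Under βOHB 1 hepatocyte and 1 fibroblast marker were raised, 1 of 4 endothelial markers was lowered (summed 4.04–13.1 to 3.15–3.67 CPM) and 0 myotube markers passed in edgeR. The part of all these markers in the subunit values was not tested. Without the third control, the βOHB values were -2.37 for *Cybb*, -1.97 for *Ncf1* and -2.04 for *Rac2*, and *Cyba* passed with -0.81.

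As a percentage of the macrophage control level, *Cybb* stood at 3.36, 2.79 and 0.924 in the myotube controls, and the median marker at 3.64, 3.13 and 1.30 in the same libraries. *Cyba* was above the median marker already in the controls, at 6.08, 5.92 and 3.42. Under butyrate it was at 2.72% to 6.67% while the median marker was at 0.208% to 0.827%. *Ncf1* was above the median marker in all 3 controls and all 3 βOHB libraries. Under butyrate it stood at 0.320%, 0.416% and 0.189% beside a median marker of 0.208%, 0.827% and 0.444%, above it in the first library and below it in the others.

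**Figure D4:**
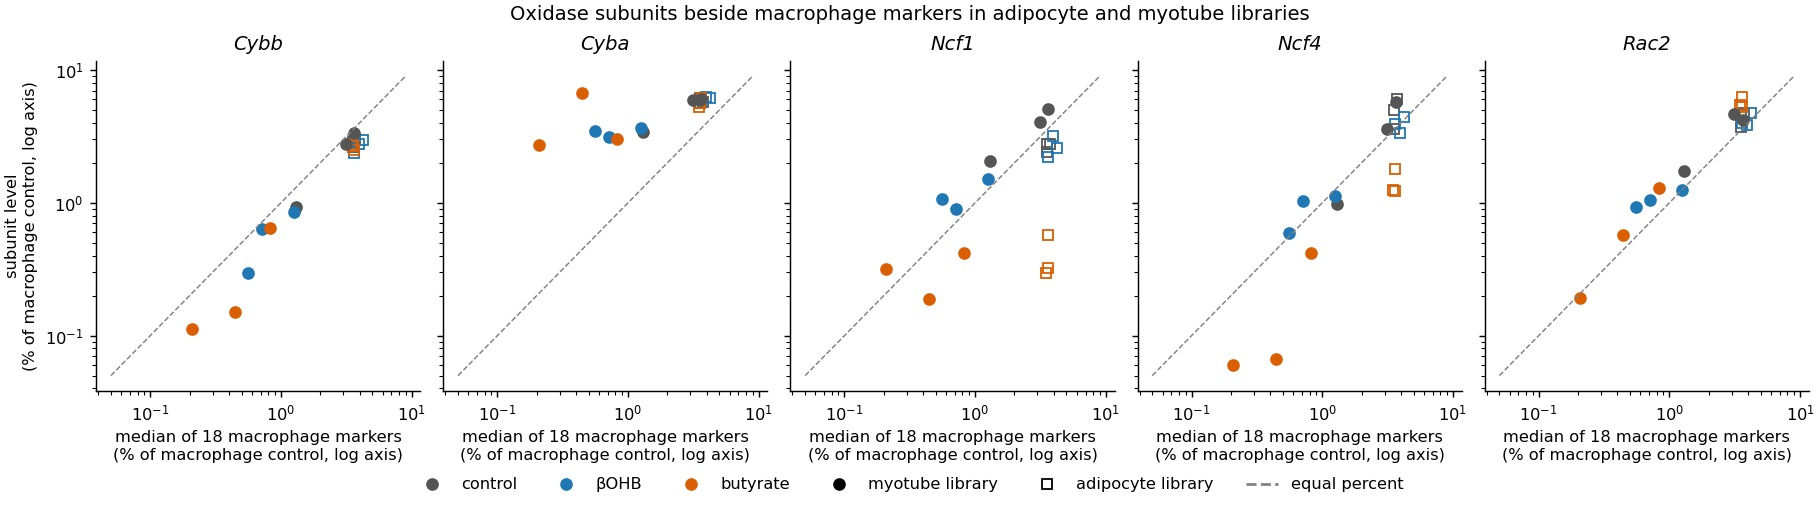
Each subunit as a percentage of its macrophage control mean (vertical, log axis) against the median of 18 macrophage markers as the same percentage (horizontal, log axis), for the 9 myotube and 9 adipocyte libraries; the dashed line marks equal percentages. *Cybb* lies below the line in all 9 myotube libraries, at 0.111% against 0.208% in the lowest one. *Cyba* lies above it in all 9 myotube and all 9 adipocyte libraries, controls included. *Ncf1* lies below it in all 9 adipocyte libraries, and farthest under butyrate, at 0.298% to 0.570%.

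Between the compounds, butyrate was lower than βOHB in myotubes for 2 of 5 subunits, with 32.9% of tested genes lower. The difference was -1.89 for *Ncf1* (95% interval -2.57 to -1.21) and -2.24 for *Ncf4* (-3.81 to -0.66). It was -0.96 for *Cybb* (-1.90 to -0.02), -0.65 for *Rac2* (-1.46 to 0.16) and 0.27 for *Cyba* (-0.15 to 0.68), none of which passed. Without the second butyrate library 4 members passed, *Cybb* with -2.19 and *Rac2* with -1.52 in addition. Without the first one *Ncf4* no longer did (-1.82) and *Cyba* did (0.50), and without the second βOHB library *Cybb* did (-1.28). In the fit of the myotube libraries alone only *Ncf1* passed.

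In hepatocytes the values were too low for a comparison of most subunits. *Cybb* had 21, 17 and 18 counts in controls, 19, 14 and 21 under βOHB and 6, 20 and 11 under butyrate. Scaled to CPM, the butyrate libraries (0.318 to 0.990 CPM) lay below the controls (1.05 to 1.32 CPM), while βOHB libraries overlapped with them. *Rac2* had 16, 9 and 7 counts in controls, 7, 7 and 4 under βOHB and 3, 7 and 3 under butyrate. *Cyba* had 39 counts in the 3 controls together, 48 under βOHB and 24 under butyrate. By edgeR 0 of the 5 members passed under butyrate, where 63.5% of tested genes did, and 0 under βOHB, where 0.00652% did. The 95% intervals of all 5 spanned 0 in both comparisons. Under βOHB DESeq2 and limma-voom also called 0. Under butyrate DESeq2 called *Ncf1* and *Rac2*, and limma-voom *Ncf1*. *Ncf1* had 14 counts in controls and 2 under butyrate, a ratio of 0.132 with a counting interval of 0.0146 to 0.575. The counting interval of the butyrate ratio also lay below 1 for *Cybb* (0.392 to 0.942), *Cyba* (0.327 to 0.971) and *Rac2* (0.181 to 0.736), as did that of the βOHB ratio for *Rac2* (0.263 to 0.913). These intervals leave out the spread between libraries. No fold is given for *Ncf4*, which had 1, 2 and 0 counts in the 3 groups, and a count of 0 over a group allows up to 0.0485 CPM under butyrate. Macrophage markers were also lower under butyrate, with a summed level of 160 to 178 CPM against 311 to 359 CPM in controls, although only 2 of 18 were called lowered and 1 raised. The median change of the list was -0.79 on the log2 scale, and the median marker stood at 0.187% to 0.296% of its macrophage control level in controls and 0.116% to 0.130% under butyrate. Of the abundant markers, *Cd14* was at 214 and 36.7 CPM on average and *Cd68* at 94.1 and 102 CPM. Endothelial markers were lowered in 4 of 4 cases, from a summed 64.6–72.0 to 19.7–23.3 CPM. The part of either list in the values was not tested. The butyrate minus βOHB difference passed for 0 of 5 members, and the interval for *Cybb* ran from -2.33 to 1.21. Among all tested genes 63.5% differed between the compounds there, and DESeq2 called 1 member, *Cyba*.

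Differences of effects between cell types were computed in the same model and, like the effects that chose the members, are given as a description. The butyrate effect in macrophages minus the mean effect in the other cell types was 1.164 for *Rac2* (SE 0.32, 95% interval 0.51 to 1.82), the 1 member that passed, and 19.0% of tested genes were called in that direction. That mean pools 0.37 in adipocytes, which was above the 0.02 of macrophages, with -2.35 in myotubes and -1.46 in hepatocytes, the last from 32 and 13 counts. It was -0.25 for *Ncf1* with an interval from -2.18 to 1.68. The βOHB effect in myotubes minus that in the others was -1.88 for *Cybb* (SE 0.46, 95% interval -2.81 to -0.95), again 1 of 5 members, against 1.00% of tested genes. That call was lost in the fits that left out myotube control 1 or 2, or myotube βOHB library 1 or 2. So it was without hepatocyte control 3, or without hepatocyte βOHB library 1 or 3, and these fits gave -1.93 to -1.54. The call was also lost with limma-voom (-1.80) and with a block for the replicate number (-1.78).

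Beyond the 5 subunits, 46 further genes of the oxidase pathway were listed by role, and 40 of them were tested. In macrophages butyrate raised 14 and lowered 17 of the 40, beside 31.9% raised and 33.2% lowered over all tested genes, with a median change of -0.17 on the log2 scale beside 0.00 over all tested genes. The median size of change was 0.46, close to 0.49 over all tested genes. *Cybc1*, a chaperone of the membrane pair, fell from 54.9 ± 2.73 to 32.4 ± 2.30 CPM (SD, n = 3; log2 fold change -0.76). *Hvcn1*, the proton channel that offsets the charge moved by the oxidase, fell from 147 ± 2.31 to 43.1 ± 3.77 CPM (-1.77). Among small GTPases and their regulators 5 of 11 rose and 5 fell. *Rac1*, the widely expressed relative of RAC2, fell by 0.31 on the log2 scale, while *Rac3* rose from 1.39 to 4.04 CPM (1.52).

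The 4 genes of NADPH supply were all lowered in macrophages by butyrate, beside 33.2% of all tested genes. The smaller falls among them, -0.27 and -0.21 on the log2 scale, were about the size of the 0.20 by which library totals move the median there. Of the same 4 genes, 1 was raised and 1 lowered in adipocytes, 0 were called in myotubes, and 1 was raised and 2 lowered in hepatocytes. *Idh1*, cytosolic isocitrate dehydrogenase, had the largest change of the 4, from 212 ± 2.38 to 91.1 ± 5.27 CPM (log2 fold change -1.22), and the others fell by less. *Clcn3*, a chloride-proton exchanger of endosomes, rose (0.96), as did *Prdx1*, a peroxiredoxin that removes peroxide (0.78). *Spi1*, which encodes the myeloid factor PU.1, fell from 230 ± 3.09 to 54.6 ± 1.85 CPM (-2.08). All of these macrophage changes passed in edgeR over all genes, with adjusted p of 1.05e-13 for *Hvcn1* and 4.9e-12 for *Spi1*.

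In adipocytes butyrate raised 14 and lowered 11 of the 40, beside 30.7% and 30.3% of all tested genes. *Spi1* fell from 12.7 to 3.61 CPM (log2 fold change -1.82), *Hvcn1* from 8.91 to 3.87 CPM (-1.21) and *Elf1*, an ETS factor, from 71.2 to 33.1 CPM (-1.11). *Prex1*, an exchange factor that activates RAC GTPases, rose from 10.6 to 31.4 CPM (1.57) and *Rac3* from 0.986 to 2.30 CPM (1.22). *Duox2* was also called, with 0 counts in controls and 6 under butyrate. *Cybc1* was at 27.8 and 24.8 CPM and did not pass (adjusted p of 0.126 by edgeR). *Rac1* was lowered slightly (-0.12).

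In myotubes 7 of the 40 were lowered and 0 raised by βOHB, beside 2.56% and 0.346% of all tested genes. With the myotube libraries alone 0 genes of the whole table passed in edgeR. The largest falls were those of *Vav1* (log2 fold change -1.96) and *Dock2* (-1.93), which encode RAC exchange factors of blood cells, and of *Spi1* (-1.81). *Hvcn1* (-1.49) fell as well. *Rac1* and *Cybc1* had log2 fold changes of -0.003 and -0.10 and did not pass. Butyrate lowered 9 and raised 18 there, beside 33.4% and 33.1% of all tested genes, with the largest falls for *Spi1* (-3.73), *Vav1* (-2.87) and *Dock2* (-2.71), while *Hvcn1* (-2.28) fell too. *Prex1* (1.57), *Prkcb* (1.26) and *Prkcd* (1.13), of which PKC-beta and PKC-delta phosphorylate p47phox, rose most. In the same libraries 17 of 18 macrophage markers were lowered by each compound, and their part in these values was not tested.

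In hepatocytes butyrate raised 13 and lowered 11 of the 40, beside 31.0% and 32.4% of all tested genes. *Rac1* fell from 428 to 318 CPM (-0.43). Among the genes that passed, *Idh1* (-0.97), *Arhgdia* (-0.96), which holds RAC proteins in the cytosol, and *Elf1* (-0.95) had the largest falls. *Tiam1* (2.76) and *Rac3* (2.25) rose, and *Prkcb* was called with 1 count in controls and 17 under butyrate. *Spi1*, *Hvcn1* and *Cybc1* did not pass there. βOHB called 0 of the 40 in macrophages, adipocytes and hepatocytes by edgeR.

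**Figure D5:**
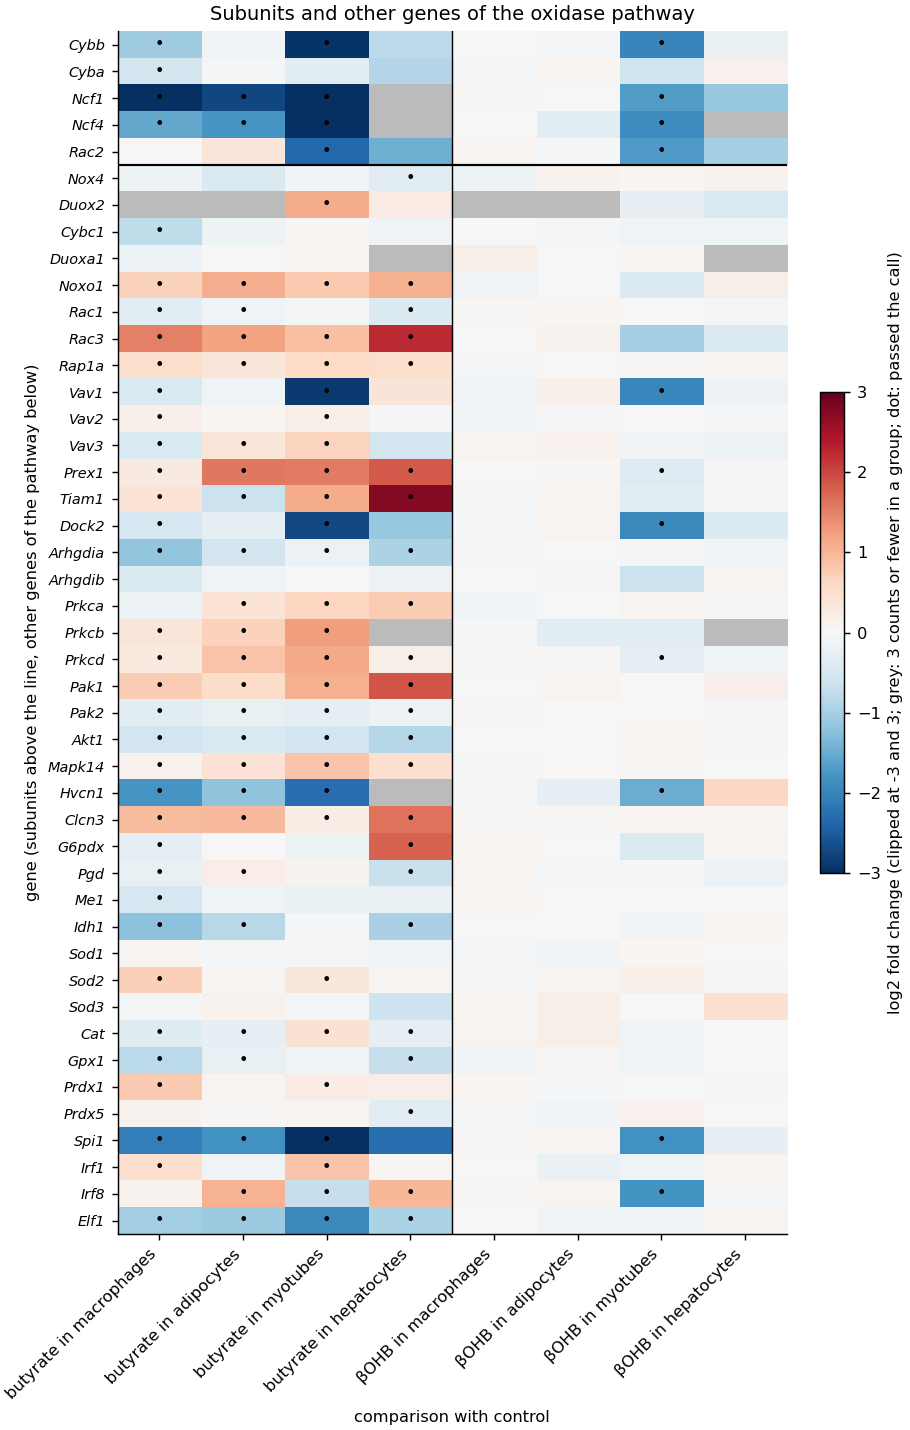
Log2 fold change over control of the 5 subunits (above the line) and 40 tested genes of the pathway (below) in the 8 comparisons, on a colour scale from -3 to 3. Dots mark genes that passed the call and grey marks 3 counts or fewer in a group. Butyrate columns hold changes in both directions, with *Spi1* at -2.08 and *Rac3* at 1.52 in macrophages, and of the βOHB columns the one of myotubes holds dots.

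Over the 12 group means, the log2 levels of the 5 subunits had Pearson correlations of 0.933 to 0.996 between pairs, a description in which the cell types set the range. Over the 9 macrophage libraries, which share the treatments, *Cybb*, *Cyba*, *Ncf1* and *Ncf4* had values of 0.949 to 0.997 with one another and 0.12 to 0.271 with *Rac2*. The genes outside the set with the highest mean correlation with the 5 members over the 12 group means were *Ptprc* (0.984), *Csf1r* (0.983), *Csf2rb2* (0.983), *Hmmr* (0.982) and *Pld4* (0.982). These names depend on the prior count of 2 added before taking logs, since only 2 of the 5 stayed in the list with 0.5. Over the 9 macrophage libraries they were *Me1*, *Tsc22d4*, *Nup133*, *Nono* and *Cln6*, with means near 0.855 that hide a lowest value of 0.361 to 0.399 over the members.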

How the data were processed

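Reads were paired-end RNA-seq of total RNA. The authors quantified them with Salmon 1.2.1 and summarised them per gene, and the deposited values are estimated counts, not whole in every case and not normalised; they were rounded here. The paper describes scaling for transcript length and library size at import, but length scaling was not visible in the deposited values. All 36 columns were used, and symbols and positions came from GENCODE M21 on GRCm38 (54094 of 54347 genes matched).

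Genes above 1 CPM, on unscaled library totals, in at least 6 libraries were kept (15340). A model of 12 group means was fitted with edgeR 4.0.16 (TMM scaling, quasi-likelihood test, R 4.3.3), and p-values were adjusted by Benjamini-Hochberg over all genes tested. The procedure was tested on simulated data. limma 3.58.1 (voom), DESeq2 1.42.0, other scalings, other filters, single cell types, a replicate block and the leaving out of each library were alternatives. Levels per kilobase used the union of exons. Counting intervals are exact 95% intervals and, like the floor of 3 counts per group, cover counting error only.

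The members and gene lists were chosen with earlier results of these data known. Named in the text were the members, pathway genes that passed (at most the 3 largest in each direction per comparison), *Cybc1*, *Rac1*, *Hvcn1* and *Spi1* in any case, and the 5 genes most correlated with the members over groups and over macrophage libraries. Marker genes named beside a result were singled out after their values were seen. A further gene of the pathway is not reported here.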

Additional observations from a re-analysis of the deposited data

Results flagged for a closer look

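Differences between cell types drew attention for 2 members, whose effects had been used in choosing them, so the values are a description. The butyrate effect on *Rac2* in macrophages minus the mean of the other 3 cell types was 1.164 on the log2 scale, a mean that pools a value above that of macrophages in adipocytes (0.37) with lower ones in myotubes (-2.35) and hepatocytes (-1.46). It was past the threshold in each of the 24 fits that left out 1 library. The βOHB effect on *Cybb* in myotubes minus the mean of the others was -1.882, past the threshold in 17 of 24 such fits but not with limma-voom (-1.795) or the replicate block (-1.78).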

How the results depend on the processing

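Of the values recomputed for single subunits under the alternatives, 1033 fold changes kept their direction and side of the threshold, 33 gained the call, 20 lost it and 22 changed sign, and 207 of 230 counts of called members stayed within 1.5 times. The number of members called changed by over 1.5 times as follows. For butyrate in hepatocytes it was 0, but 1 with limma-voom and 2 with DESeq2, without a filter on low counts, or with the hepatocyte libraries alone. For butyrate minus βOHB in hepatocytes it was 0, but 1 with DESeq2, without a filter or with those libraries alone. For butyrate minus βOHB in myotubes it was 2, but 4 without a filter, 1 with the myotube libraries alone, and 2 to 4 when each library was left out in turn. For βOHB in myotubes it was 4, but 0 with the myotube libraries alone, 3 with limma-voom (without *Ncf4*), 5 without a filter (with *Cyba*), and 3 to 5 with libraries left out. For βOHB in myotubes minus the other cell types it was 1, but 0 with limma-voom, 3 with DESeq2, 4 without a filter, and 0 to 3 with libraries left out. Smaller changes were 3 in place of 4 under library totals for butyrate, and for butyrate minus βOHB, in macrophages (*Cyba* lost), 3 in place of 2 in adipocytes (*Rac2* gained) for butyrate without a filter or with those libraries alone and for butyrate minus βOHB also under library totals, and 5 in place of 4 without a filter for butyrate in myotubes (*Cyba* gained). The causes were not tested.

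With the replicate block, 0 members passed for βOHB in myotubes minus the other cell types (*Cybb* -1.78), and no other call of a member changed. Same-numbered libraries had correlations of -0.216 to 0.225 between their deviations over 24 pairs, 3 of them over 0.1. With 3 libraries per group these values cannot tell whether same-numbered libraries share an animal or culture.

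Sign changes concerned values that had not passed. Under library totals alone, which moved the median of all genes by 0.20 for butyrate in macrophages and 0.13 in myotubes, butyrate gave 0.051 for *Cyba* in adipocytes and βOHB gave -0.03 for *Ncf1* in adipocytes. Butyrate minus βOHB then was 0.155 for *Rac2* in macrophages, 0.021 for *Cyba* and 0.076 for *Cybb* in adipocytes. Limma-voom gave -0.018 for *Ncf1* with βOHB in adipocytes. With libraries left out in turn, βOHB in adipocytes ranged from -0.142 to 0.028 for *Cybb*, -0.139 to 0.122 for *Ncf1* and -0.164 to 0.015 for *Rac2*, and butyrate from -0.099 to 0.014 for *Cyba*. βOHB in macrophages ranged from -0.045 to 0.047 for *Cybb* and -0.028 to 0.049 for *Ncf4*, and in hepatocytes from -0.097 to 0.389 for *Cyba*. Butyrate minus βOHB ranged from -0.134 to 0.036 for *Cybb* in adipocytes and -0.246 to 0.496 for *Cyba* in myotubes. Butyrate in macrophages minus the other cell types ranged from -0.225 to 0.031 for *Cyba* and -0.428 to 0.694 for *Ncf1*.

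Hepatocyte values rest on few counts, and *Ncf4* in treated myotubes likewise.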
